A study of Mus musculus with 15 samples.

Results

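The genes described here are the nuclear genes of respiratory complex I in mouse plantaris muscle. They were the rows of the deposited count table whose symbol begins with Nduf followed by a, b, c, s, v, ab or af and whose listed biotype is protein coding. The rule took 47 of 20406 genes, of which 39 carry the name of a subunit and 8 the Ndufaf name of an assembly factor. Another 6 Nduf rows are processed pseudogenes and were left out. All 47 members had enough counts to be tested. They were taken by name, but this set of genes was chosen with earlier results of these data known.

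RNA was sequenced from whole plantaris, a hindlimb muscle of mostly fast fibres, in 15 libraries of 5 groups with 3 libraries each. All mice were adult males of the HSA-GFP strain, in which the human skeletal actin promoter drives a reverse tetracycline transactivator and a tetracycline-responsive histone 2B-GFP marks the nuclei of muscle fibres. Group 6M_PoW ran on progressively weighted wheels (PoWeR) for 8 weeks from the age of 4 months and was sampled at 6 months, and 6M_UT was its untrained control of the same age. Group 9M_PoW+DT ran in the same way, was then detrained for 12 weeks and was sampled at 9 months, beside untrained 9M_UT mice of that age. The fifth group, 6M_POW_LD, holds 3 libraries of 6 months whose titles name training and carry the identifier LD, for which the labels give no meaning. In 9 libraries the treatment label goes against the title: it calls the 9M_UT libraries detrained, and the 9M_PoW+DT and 6M_POW_LD libraries sedentary. Every direction below follows the titles. The library identifiers differ between the 6-month groups, the 9-month groups and 6M_POW_LD, so that age and library series cannot be told apart, nor can LD and its series. Nothing in the labels says that the libraries of a group came from separate mice, so that p-values measure the spread between these libraries, which may be technical.

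Complex I takes electrons from NADH, passes them along iron-sulphur clusters to ubiquinone and pumps protons across the inner mitochondrial membrane. Its N module oxidises NADH, its Q module reduces ubiquinone, and its proximal and distal membrane arms hold the proton channels, whose core subunits are encoded by the mitochondrial genome. The nuclear genes encode the other core subunits, which carry the redox centres, and many accessory subunits that surround them. Assembly factors bind intermediates while the complex is built and are absent from the finished enzyme. In muscle, endurance exercise is known to raise the content of mitochondria and of their respiratory complexes.

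The promoters of these genes were searched for 5 short motifs of factors known to bind promoters of mitochondrial genes, on both strands and in 300 bases (250 before to 50 after each RefSeq start, GRCm38.p6). Promoters of 41 of the 47 members were matched, 34 of subunits and 7 of Ndufaf genes. The NRF1 motif (GCGCA, any base, GCGC) lay in 7 of 34 subunit genes (20.6%), in 2 of 7 Ndufaf genes and in 5.19% of all 27025 genes. The YY1 motif AAGATGGC lay in 7 subunit genes (20.6%), in 1 Ndufaf gene and in 3.19% of all genes. These letters contain an ATG, with which coding sequences also begin. The ETS motif CCGGAAG lay in 4 subunit genes, in 2 Ndufaf genes and in 9.93% of all genes. The ERR motif AAGGTCA and the CRE motif TGACGTCA each lay in 3 subunit genes and in 0 of 7 Ndufaf genes, beside 5.38% and 2.03% of all genes. A match is a description of the letters and not a site shown to be bound. The stretches below are shown because they hold the matches of the members called in the test across the 5 groups (described after them). Each is 30 bases long, runs 5′ to 3′ on the strand of the gene and has the match in capitals. The match in Ndufb6 reads on the opposite strand.
Ndufc1 (YY1, chr3:51408915-51408944, minus strand): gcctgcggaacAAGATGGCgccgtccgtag
Ndufa9 (YY1, chr6:126849097-126849126, minus strand): cattgtgggagAAGATGGCggccgccgtcc
Ndufa5 (NRF1, chr6:24527697-24527726, minus strand): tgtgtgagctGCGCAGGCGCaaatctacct
Ndufa11 (NRF1, chr17:56717692-56717721, plus strand): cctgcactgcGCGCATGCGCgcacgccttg
Ndufa11 (CRE, chr17:56717593-56717622, plus strand): tttacctttccTGACGTCAcgggcgtctct
Ndufb7 (ETS/GABP, chr8:83566727-83566756, plus strand): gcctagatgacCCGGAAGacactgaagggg
Ndufb6 (ETS/GABP, chr4:40279635-40279664, minus strand): tcgtccttgttCTTCCGGtcccctccccta
Ndufa7, Ndufb1-ps and Ndufv1, which were called as well, held 0 of the 5 motifs. The YY1 match of Ndufc1, the member with the smallest p, begins 22 bases after the RefSeq start. The stretch of 217 bases upstream of the gene that no annotated exon covers, chr3:51408989-51409205 on the minus strand of GRCm38.p6, held none of the 5 motifs:
Ndufc1 upstream: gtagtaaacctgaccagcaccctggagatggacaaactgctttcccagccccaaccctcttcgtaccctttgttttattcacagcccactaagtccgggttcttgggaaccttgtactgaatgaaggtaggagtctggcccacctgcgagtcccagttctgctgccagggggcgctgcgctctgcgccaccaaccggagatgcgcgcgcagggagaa

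The libraries held 18865048 to 27688842 counts in total, and the 39 subunits took 0.421% to 0.548% of them. The 8 Ndufaf genes took 0.0102% to 0.0145%. Levels are counts scaled to 1000000 per library (CPM) and adjusted between libraries by TMM. The fast and general fibre markers Acta1, Ckm, Myh4, Tnnt3, Mylpf and Tnni2 summed to 76016 to 114951 CPM, as the muscle label has it. Markers of adipocytes (Adipoq, Lep, Plin1 and Cidec) summed to 15.4, 15.7 and 61.6 CPM in 9M_PoW+DT and to 1.84 to 14.03 CPM in the other 12 libraries, so that all 3 detrained libraries were highest. Among the LD libraries, Schwann cell markers reached 61.3 CPM in replicate 5 and red cell markers 2045 CPM in replicate 6. As whole muscle was sequenced, fewer fibres and less RNA per fibre cannot be told apart in any comparison below.

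Levels differed among the 5 groups for 10 of 47 members (edgeR's quasi-likelihood F test, adjusted p under 0.05), beside 4.49% of all 15181 genes tested. All 10 were subunits: Ndufc1, Ndufa7, Ndufb9, Ndufb1-ps, Ndufb7, Ndufa9, Ndufa11, Ndufv1, Ndufb6 and Ndufa5, and 0 of the 8 Ndufaf genes passed. The lowest group mean was in a 9-month group for all 39 subunits, 27 times in 9M_UT and 12 times in 9M_PoW+DT, and for 6 of 8 Ndufaf genes. It was in a 9-month group for 38.3% of all genes. The highest was in a 9-month group for 0 of the 39 subunits and 2 of the 8 Ndufaf genes, beside 35.7% of all genes. It was in 6M_POW_LD for 28 of the 39 subunits and 3 of the 8 Ndufaf genes. The share of all genes highest in 6M_POW_LD was not taken, so that this count cannot be called particular to these genes. The ratio of the highest to the lowest group mean was small throughout, with a median of 1.246 and at most 1.43 over the subunits. Without the LD libraries, in a test added after the data were seen, 1 of the 10 passed, Ndufc1 (edgeR adjusted p = 0.0323), beside 0.141% of all genes. The count of 10 fell to 5 without 6M_PoW replicate 1 or 2 or 9M_PoW+DT replicate 2, to 3 without 6M_POW_LD replicate 4 or 6, to 5 without its replicate 5 and to 6 without 9M_UT replicate 2 or 3.

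**Figure D1:**
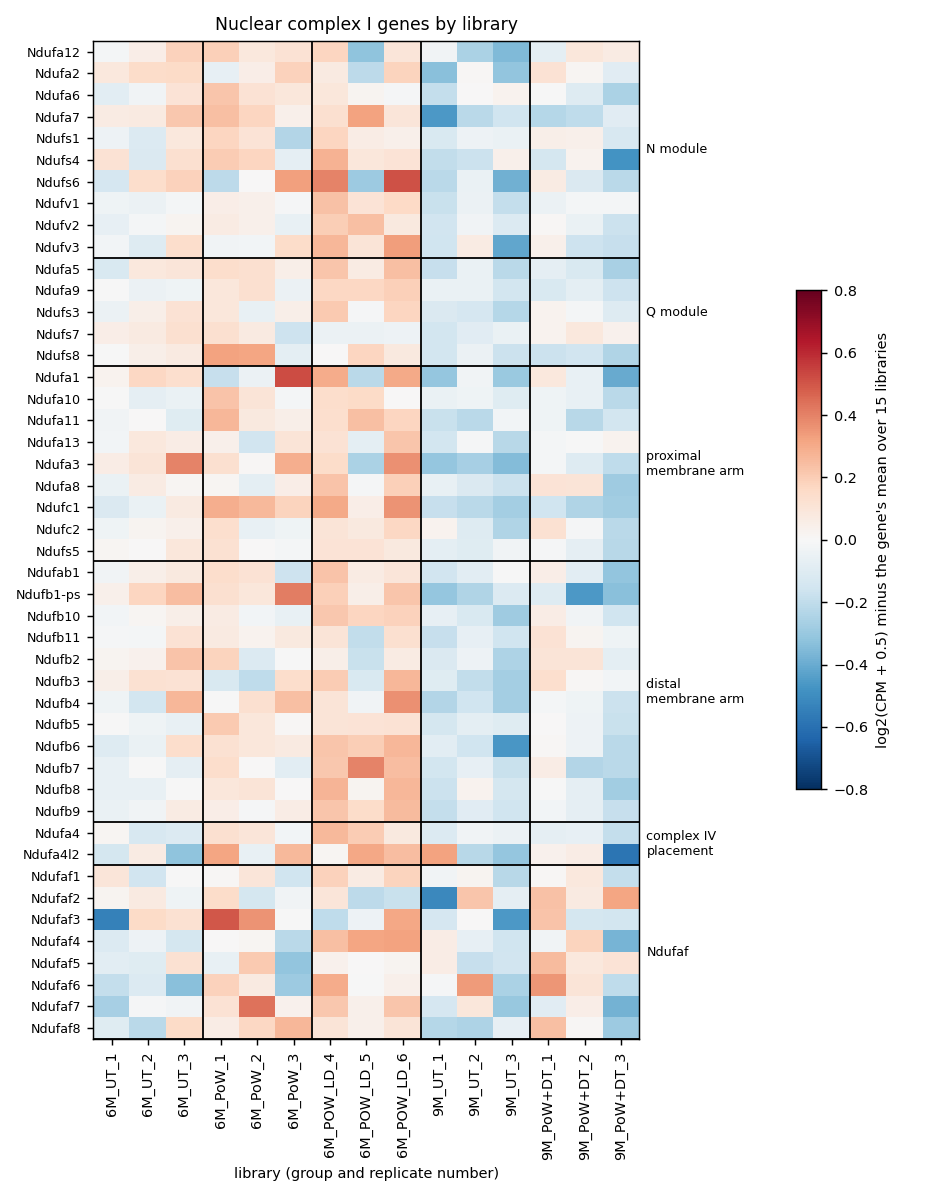
Level of 46 of the 47 members (rows, by module) in each of the 15 libraries (columns, by group), as log2(CPM + 0.5) minus the gene's mean over the 15 libraries. The 9-month columns are mostly blue for the subunits, whose lowest group mean was in a 9-month group for all 39, and the Ndufaf rows at the bottom are mixed.

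The N module binds NADH and starts the electron path. Ndufv1, which holds the flavin that NADH reduces, was highest in 6M_POW_LD. Ndufv1 stood at 299.8, 297 and 304 CPM in 6M_UT, 319, 316 and 305 in 6M_PoW, 362, 332 and 343 in 6M_POW_LD, 271, 298 and 269 in 9M_UT and 298, 304 and 303 in 9M_PoW+DT. It differed among the 5 groups (edgeR adjusted p = 0.03800), and each 6M_POW_LD library lay above the other 12. Ndufv2 stood at 193, 199.7 and 205 CPM in 6M_UT, 211, 207 and 193 in 6M_PoW, 231, 239 and 213 in 6M_POW_LD, 181, 198 and 187 in 9M_UT and 203, 194 and 179 in 9M_PoW+DT. This gene encodes an iron-sulphur subunit beside Ndufv1, and it did not pass (edgeR adjusted p = 0.1003). Ndufs1 stood at 370.1, 353 and 404 CPM in 6M_UT, 428, 411 and 324 in 6M_PoW, 428, 397 and 392 in 6M_POW_LD, 349.9, 370.5 and 367 in 9M_UT and 392, 391 and 347 in 9M_PoW+DT. Ndufs1 encodes the largest iron-sulphur subunit. Its libraries of 6M_UT, 6M_PoW, 9M_UT and 9M_PoW+DT overlapped, and those of 6M_POW_LD lay above those of 9M_UT. Ndufs1 did not pass (edgeR adjusted p = 0.706).

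The accessory N module genes were more scattered. Ndufa7 stood at 59.4, 59.7 and 65.9 CPM in 6M_UT, 67.2, 63.96 and 58.4 in 6M_PoW, 61.8, 71.1 and 60.5 in 6M_POW_LD, 41.1, 48.7 and 50.7 in 9M_UT and 48.3, 49.2 and 53.1 in 9M_PoW+DT. All 6 libraries of 9 months lay below all 9 libraries of 6 months for Ndufa7, and it differed among the groups (edgeR adjusted p = 0.0112). Ndufa2 stood at 67.6, 70.5 and 71.1 CPM in 6M_UT, 60.98, 66.2 and 72.7 in 6M_PoW, 67.2, 55.2 and 72.2 in 6M_POW_LD, 50.4, 64.1 and 51.03 in 9M_UT and 69.02, 64.5 and 59.9 in 9M_PoW+DT. This small accessory subunit was low in 9M_UT replicates 1 and 3 and in 6M_POW_LD replicate 5. Ndufa12 stood at 39.9, 41.9 and 45.96 CPM in 6M_UT, 46.3, 42.9 and 43.7 in 6M_PoW, 45.5, 32.3 and 43.2 in 6M_POW_LD, 39.6, 33.8 and 31.5 in 9M_UT and 38.2, 43.1 and 42.4 in 9M_PoW+DT. Ndufa12 shares near-identical sequence with a processed pseudogene, listed at a similar level, so that its level is uncertain. The other N module genes, Ndufa6, Ndufs4, Ndufs6 and Ndufv3, lay between 25.7 and 132 CPM and did not pass.

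The Q module carries the electrons to ubiquinone. Ndufs3 stood at 139.6, 149 and 156 CPM in 6M_UT, 154, 138 and 149 in 6M_PoW, 166, 143 and 163 in 6M_POW_LD, 133, 131 and 123 in 9M_UT and 147, 142 and 134 in 9M_PoW+DT. Ndufs7 stood at 159, 161 and 168 CPM in 6M_UT, 168, 161 and 137 in 6M_PoW, 148, 149 and 149 in 6M_POW_LD, 139, 144 and 148 in 9M_UT and 156, 162 and 157 in 9M_PoW+DT. Ndufs3 is an early scaffold of the module and Ndufs7 carries its last iron-sulphur cluster, and neither passed across the groups (edgeR adjusted p = 0.152 and 0.394). Ndufs8 stood at 86.3, 89.5 and 91.05 CPM in 6M_UT, 108, 108 and 82.01 in 6M_PoW, 86.8, 97.3 and 91.2 in 6M_POW_LD, 78.01, 83.7 and 76.6 in 9M_UT and 76.6, 77.8 and 73.2 in 9M_PoW+DT. Ndufs8 holds a pair of iron-sulphur clusters, and its trained libraries were split, with replicate 3 of 6M_PoW below the 3 libraries of 6M_UT (edgeR adjusted p = 0.0588).

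Both accessory genes of the Q module passed. Ndufa9 stood at 168, 163 and 165 CPM in 6M_UT, 179, 184 and 163 in 6M_PoW, 189, 189 and 192 in 6M_POW_LD, 162, 162 and 152 in 9M_UT and 155, 159.7 and 150.001 in 9M_PoW+DT. The 3 libraries of 6M_POW_LD lay above the other 12 for Ndufa9, whose product sits at the joint of both arms (edgeR adjusted p = 0.0358). Ndufa5 stood at 59.97, 69.2 and 70.01 CPM in 6M_UT, 71.9, 71.6 and 67.4 in 6M_PoW, 76.5, 68.5 and 77.2 in 6M_POW_LD, 57.6, 62.9 and 56.3 in 9M_UT and 62.2, 60.01 and 54.5 in 9M_PoW+DT. Ndufa5 differed among the groups, and its 6 libraries of 9 months lay below all those of 6 months except the lowest 6M_UT library, which 3 of them exceeded (edgeR adjusted p = 0.0489).

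In the proximal membrane arm, 2 of 9 genes passed. Ndufc1 stood at 61.9, 64.8 and 70.8 CPM in 6M_UT, 82.5, 80.6 and 76.03 in 6M_PoW, 82.97, 69.8 and 86.3 in 6M_POW_LD, 59.1, 57.96 and 55.7 in 9M_UT and 60.02, 56.9 and 55.4 in 9M_PoW+DT. Ndufc1 encodes a small membrane-spanning subunit. All 6 libraries of 9 months lay below all 9 libraries of 6 months, and the trained libraries of 6M_PoW lay above the untrained ones (edgeR adjusted p = 0.00194). Ndufa11 stood at 81.9, 83.97 and 78.3 CPM in 6M_UT, 101, 88.4 and 86.6 in 6M_PoW, 91.7, 99.1 and 94.2 in 6M_POW_LD, 73.9, 71.9 and 82.5 in 9M_UT and 81.7, 71.7 and 75.5 in 9M_PoW+DT. Ndufa11, a membrane subunit that faces complex III in supercomplexes, was higher in every trained library than in the 6M_UT libraries (edgeR adjusted p = 0.0361), and its gene overlaps Vmac on the opposite strand. Ndufa10 stood at 227, 216 and 219 CPM in 6M_UT, 267, 245 and 225 in 6M_PoW, 251, 253 and 228 in 6M_POW_LD, 219, 222 and 212 in 9M_UT and 222, 218 and 196 in 9M_PoW+DT. Ndufa3 stood at 58.7, 60.5 and 74.2 CPM in 6M_UT, 61.6, 56.7 and 69.1 in 6M_PoW, 62.3, 47.1 and 72.7 in 6M_POW_LD, 45.3, 46.8 and 44.2 in 9M_UT and 55.6, 52.4 and 48.8 in 9M_PoW+DT. Ndufa10 and Ndufa3 did not pass (edgeR adjusted p = 0.186 and 0.0843), and the values of Ndufa3 in 9M_UT lay below every other library. Ndufa1, Ndufa8, Ndufa13, Ndufc2 and Ndufs5 did not pass either and lay between 20.4 and 128 CPM.

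In the distal membrane arm, 4 of 12 genes passed. Ndufb9 stood at 244, 248 and 265 CPM in 6M_UT, 263, 251 and 264 in 6M_PoW, 296, 281 and 303 in 6M_POW_LD, 222, 238 and 227 in 9M_UT and 249.7, 241 and 222 in 9M_PoW+DT. Ndufb9, a subunit of the LYR family at the tip of the matrix side, was highest in 6M_POW_LD, all 3 of whose libraries lay above the other 12 (edgeR adjusted p = 0.0159). Ndufb7 stood at 96.3, 101 and 95.6 CPM in 6M_UT, 111, 101 and 94.7 in 6M_PoW, 117, 132 and 119 in 6M_POW_LD, 90.8, 96.04 and 88.7 in 9M_UT and 105, 85.5 and 86.3 in 9M_PoW+DT. Ndufb7 lies on the intermembrane face, and the same order held, with every 6M_POW_LD library above the other 12 (edgeR adjusted p = 0.0206). Ndufb6 stood at 60.6, 62.8 and 72.1 CPM in 6M_UT, 71.1, 69.6 and 68.5 in 6M_PoW, 76.3, 74.8 and 78.6 in 6M_POW_LD, 61.4, 58.5 and 46.998 in 9M_UT and 65.8, 63.3 and 55.98 in 9M_PoW+DT. The 6M_POW_LD libraries of Ndufb6 were again above the other 12 (edgeR adjusted p = 0.0454), and its gene overlaps Smim27 on the opposite strand.

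Ndufb1-ps stood at 26.95, 29.6 and 31.3 CPM in 6M_UT, 28.7, 27.9 and 35.03 in 6M_PoW, 29.9, 27.1 and 30.7 in 6M_POW_LD, 21.1, 22.1 and 24.3 in 9M_UT and 24.3, 18.96 and 20.7 in 9M_PoW+DT. Ndufb1-ps, named as a pseudogene but listed as protein coding, encodes a small membrane subunit. Its 9-month libraries lay below all 9 libraries of 6 months (edgeR adjusted p = 0.0167), and its gene overlaps Cpsf2 on the opposite strand. Such an overlap holds for 17 of the 47 members, among them Ndufa3 (with Tfpt) and Ndufs3 (with Kbtbd4). The use of strand in the counting is not given, so that how reads in these overlaps were counted is not known. Ndufb10 stood at 179.6, 184 and 188 CPM in 6M_UT, 191, 179 and 175 in 6M_PoW, 212, 205 and 207 in 6M_POW_LD, 174, 167 and 149 in 9M_UT and 190.1, 179 and 163 in 9M_PoW+DT. Ndufb3 stood at 58.9, 61.996 and 61.9 CPM in 6M_UT, 52.5, 49.4 and 62.99 in 6M_PoW, 65.8, 52.5 and 68.5 in 6M_POW_LD, 53.2, 49.7 and 47.05 in 9M_UT and 62.5, 57.3 and 56.2 in 9M_PoW+DT. Ndufb11 stood at 137, 136 and 149 CPM in 6M_UT, 145, 140.3 and 145 in 6M_PoW, 148, 119.9 and 150.4 in 6M_POW_LD, 121, 132 and 123 in 9M_UT and 149, 139.9 and 134 in 9M_PoW+DT. None of these 3 accessory subunits passed, the smallest being Ndufb10 (edgeR adjusted p = 0.0606), whose 6M_POW_LD libraries lay above the other 12. Reads of Ndufb4 may be shared with its near-identical copy Ndufb4c, so that its level is uncertain. The remaining distal genes Ndufab1, Ndufb2, Ndufb4, Ndufb5 and Ndufb8 did not pass and lay between 23.4 and 218 CPM.

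The symbol rule also took Ndufa4 and Ndufa4l2, whose products are now placed with complex IV (cytochrome c oxidase). Ndufa4 stood at 297, 269 and 273 CPM in 6M_UT, 321, 314 and 290.1 in 6M_PoW, 353, 339 and 311 in 6M_POW_LD, 273, 288 and 284 in 9M_UT and 279.7, 281 and 258 in 9M_PoW+DT. Ndufa4 was the most abundant member per length, and 2 of the 3 libraries of 6M_POW_LD lay above the other 13. Ndufa4l2 stood at 3.83, 4.49 and 3.32 CPM in 6M_UT, 5.43, 4.07 and 5.22 in 6M_PoW, 4.33, 5.396 and 5.16 in 6M_POW_LD, 5.46, 3.58 and 3.35 in 9M_UT and 4.39, 4.46 and 2.68 in 9M_PoW+DT. This paralogue, known as a gene induced by low oxygen, was listed at 2.68 to 5.46 CPM with overlapping groups. Neither passed across the 5 groups (edgeR adjusted p = 0.0506 and 0.637).

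**Figure D2:**
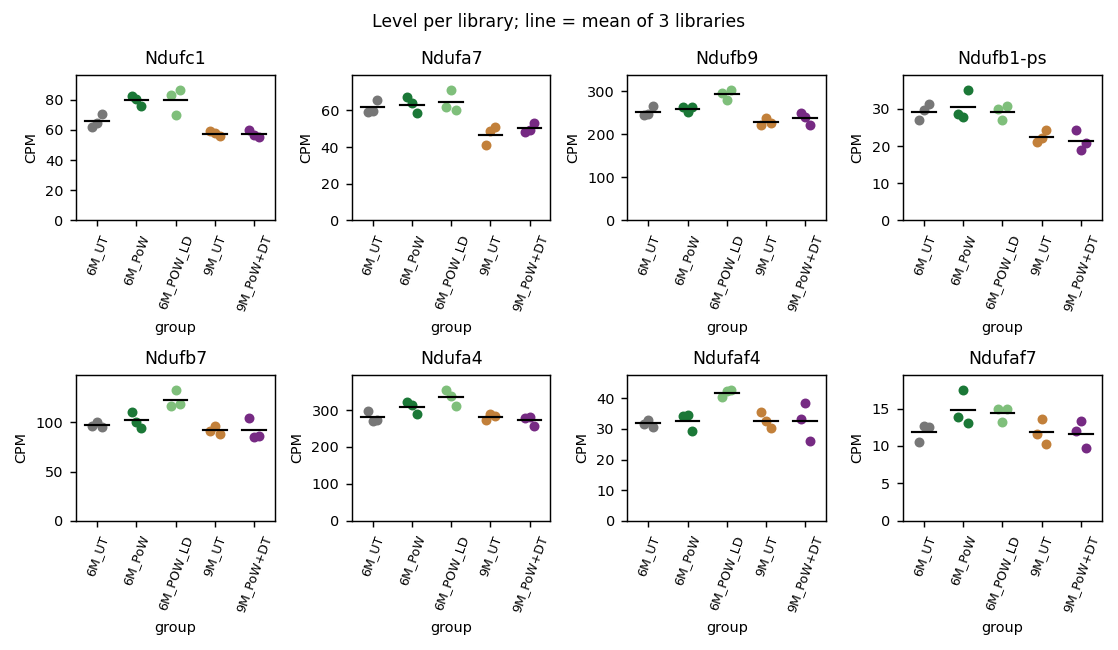
CPM in each library (points) with the group mean (line) for 8 members, with the vertical axis from 0. For Ndufc1, Ndufa7 and Ndufb1-ps all 6 libraries of 9 months lie below all 9 of 6 months, and for Ndufb9, Ndufb7 and Ndufaf4 the 3 libraries of 6M_POW_LD lie highest.

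The 8 Ndufaf genes were less abundant and more variable than the subunits, with a median standard error of 0.16 against 0.09 on the log2 scale. Ndufaf3 stood at 5.37, 8.99 and 8.77 CPM in 6M_UT, 11.5, 10.5 and 8.003 in 6M_PoW, 6.896, 7.79 and 10.1 in 6M_POW_LD, 7.28, 8.04 and 5.71 in 9M_UT and 9.51, 7.23 and 7.21 in 9M_PoW+DT. Ndufaf4 stood at 31.5, 33.02 and 30.8 CPM in 6M_UT, 34.1, 34.4 and 29.2 in 6M_PoW, 40.3, 42.4 and 42.5 in 6M_POW_LD, 35.4, 32.4 and 30.4 in 9M_UT and 33.3, 38.4 and 26.1 in 9M_PoW+DT. The products of Ndufaf3 and Ndufaf4 act together early in building the Q module. The libraries of 6M_POW_LD lay above the other 12 for Ndufaf4 (edgeR adjusted p = 0.128), and those of Ndufaf3 overlapped throughout (edgeR adjusted p = 0.504). Ndufaf7 stood at 10.5, 12.7 and 12.5 CPM in 6M_UT, 13.9, 17.4 and 13.1 in 6M_PoW, 14.9, 13.2 and 15 in 6M_POW_LD, 11.6, 13.6 and 10.2 in 9M_UT and 11.9, 13.3 and 9.71 in 9M_PoW+DT. Ndufaf5 stood at 11.2, 11.1 and 13.01 CPM in 6M_UT, 11.4, 13.9 and 9.49 in 6M_PoW, 12.2, 11.9 and 12.1 in 6M_POW_LD, 12.4, 10.4 and 10.6 in 9M_UT and 14.3, 12.6 and 12.9 in 9M_PoW+DT. Ndufaf7 is an arginine methyltransferase and Ndufaf5 modifies an arginine of Ndufs7, and neither gene passed (edgeR adjusted p = 0.3100 and 0.7099).

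Ndufaf8 stood at 9.33, 8.56 and 11.2 CPM in 6M_UT, 10.4, 11.3 and 12.1 in 6M_PoW, 10.8, 10.3 and 10.8 in 6M_POW_LD, 8.49, 8.37 and 9.55 in 9M_UT and 11.9, 10.1 and 8.09 in 9M_PoW+DT. Ndufaf8 is a partner of Ndufaf5, and only replicate 3 of 9M_PoW+DT lay below replicates 1 and 2 of 9M_UT. Ndufaf1 stood at 36.1, 30.3 and 33.7 CPM in 6M_UT, 33.96, 36.1 and 30.03 in 6M_PoW, 38.4, 35.3 and 38.2 in 6M_POW_LD, 33.1, 34.2 and 28.8 in 9M_UT and 33.9, 35.7 and 29.4 in 9M_PoW+DT. Ndufaf1 belongs to the assembly complex of the membrane arm and was the most abundant assembly factor per length, at 23.3 CPM per kb. Ndufaf6 stood at 10.1, 10.8 and 9.12 CPM in 6M_UT, 13.3, 12.2 and 9.397 in 6M_PoW, 14.4, 11.6 and 11.98 in 6M_POW_LD, 11.6, 14.9 and 9.69 in 9M_UT and 15.03, 12.5 and 10.03 in 9M_PoW+DT. Ndufaf2 stood at 3.87, 4.03 and 3.71 CPM in 6M_UT, 4.26, 3.401 and 3.73 in 6M_PoW, 4.11, 3.22 and 3.31 in 6M_POW_LD, 2.52, 4.51 and 3.59 in 9M_UT and 4.56, 4.04 and 4.85 in 9M_PoW+DT. Ndufaf6 acts early in assembly and Ndufaf2 late, at the N module. For Ndufaf6 the libraries of 6M_POW_LD lay above those of 6M_UT. For Ndufaf2 those of 9M_PoW+DT lay narrowly above those of 6M_UT (4.035 against 4.034 CPM at the closest). For both genes all other pairs of groups overlapped. The edgeR adjusted p over the 5 groups was 0.487 for Ndufaf8, 0.566 for Ndufaf1, 0.6299 for Ndufaf6 and 0.735 for Ndufaf2.

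Per kilobase of transcript, which allows genes to be compared, the subunits had a median of 112.5 CPM per kb over 38 genes with a length, and the Ndufaf genes a median of 9.85 over 8. Ndufa4 stood highest at 556 CPM per kb, followed by Ndufb9 at 361. Ndufa4l2 was lowest at 4.65 CPM per kb, below all 8 Ndufaf genes, and was the only subunit-named gene with a length below them. The lowest subunit after it was Ndufb2 at 28.4 CPM per kb, above the highest assembly factor Ndufaf1 at 23.3. By module the medians were 110.3 in the N module, 127.5 in the Q module, 110.8 in the proximal and 152.0 in the distal membrane arm. Lengths are those of the principal transcripts in GENCODE M21, and Ndufb1-ps had none there.

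**Figure D3:**
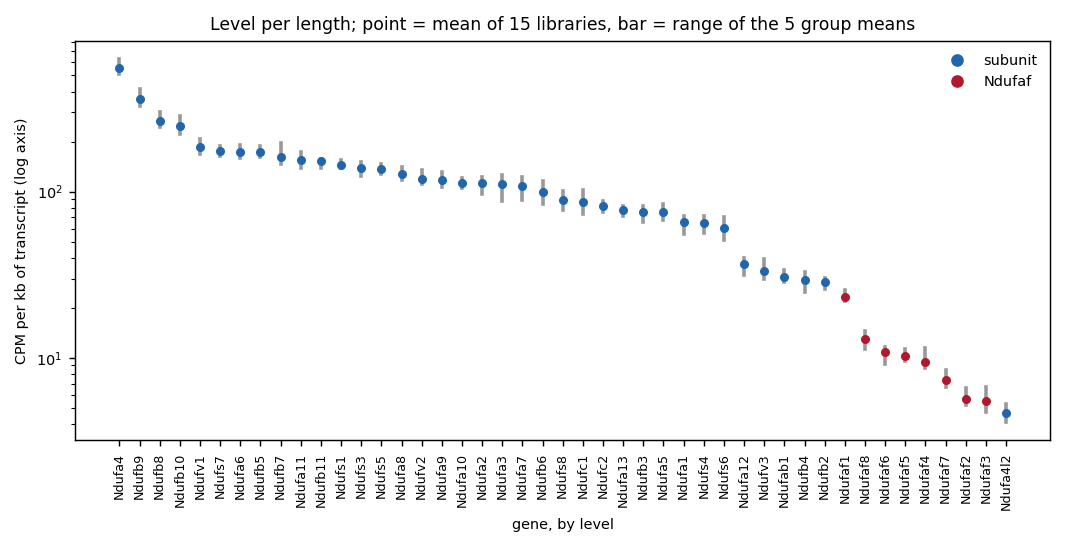
Level per length of 45 members with a transcript length, on a log axis. Points are means over 15 libraries and bars the range of the 5 group means; the 8 Ndufaf genes lie below every subunit except Ndufa4l2, and the groups' ranges are short beside the differences between genes.

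Training was compared at 6 months (6M_PoW minus 6M_UT) to ask whether 8 weeks of weighted running changed these transcripts. None of the 47 members passed, beside 0.0% of all 14919 genes (edgeR adjusted p under 0.05; DESeq2 and limma-voom also called 0 members). At an unadjusted p under 0.05 there was 1 member, Ndufc1, which was higher, beside 4.73% of all genes. Its log2 fold change was 0.28 ± 0.08 (SE; edgeR adjusted p = 0.233), with 79.7 ± 3.34 CPM against 65.8 ± 4.56 CPM (SD, n = 3) and groups that did not overlap. The next subunits were Ndufa11 at 0.17 ± 0.08 and Ndufa10 at 0.15 ± 0.07. Among the Ndufaf genes, Ndufaf7 stood at 0.31 ± 0.16 and Ndufaf3 at 0.37 ± 0.21 (edgeR adjusted p = 0.552 and 0.607). The median log2 fold change was 0.04 over the subunits, with 28 of 39 above 0, and 0.13 over the Ndufaf genes, with 6 of 8 above 0, beside 0.00 over all genes. No overlap between groups, with 6M_PoW higher, was seen for 5 subunits and 1 Ndufaf gene, beside 7.85% of all genes. Leaving out 1 library moved the subunit median between 0.0107 (without 6M_UT replicate 1) and 0.0757 (without its replicate 3), and the Ndufaf median between 0.0583 and 0.1457 (without 6M_PoW replicate 1 or 3). Markers of macrophages summed to 45.2 to 64.03 CPM in 6M_PoW against 32.9 to 34.4 in 6M_UT, those of fibro-adipogenic cells to 327 to 380.3 against 255 to 278, and those of endothelium to 221 to 244 against 158 to 201. None of these 13 genes passed (edgeR; 9 were higher at an unadjusted p under 0.05), and their part in the result was not tested.

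At 9 months the detrained libraries were compared with the untrained (9M_PoW+DT minus 9M_UT). Again 0 of 47 members passed, beside 0.0201% of all genes (edgeR adjusted p under 0.05; DESeq2 and limma-voom called 0 members). At an unadjusted p under 0.05, 4 subunits were higher, beside 3.22% of all genes: Ndufb3 at 0.23 ± 0.09, Ndufb11 at 0.17 ± 0.07, Ndufa12 at 0.24 ± 0.10 and Ndufa2 at 0.23 ± 0.10 (log2 ± SE). Their edgeR adjusted p was 0.7098 to 0.735. Ndufb3 stood at 58.7 ± 3.38 CPM against 49.98 ± 3.08 CPM (SD, n = 3). The Ndufaf genes with the smallest p were Ndufaf5 at 0.25 ± 0.15 and Ndufaf2 at 0.35 ± 0.22 (edgeR adjusted p = 0.801 and 0.814). The medians were 0.06 over the subunits and 0.13 over the Ndufaf genes, with 27 of 39 and 6 of 8 above 0, beside 0.00 over all genes. Leaving out 1 library moved the subunit median between 0.0007 (without 9M_PoW+DT replicate 1) and 0.0993 (without its replicate 3), and the Ndufaf median between 0.0176, when 9M_UT replicate 3 was left out, and 0.2277, when 9M_PoW+DT replicate 3 was. The adipocyte markers stood at 15.4 to 61.6 CPM in 9M_PoW+DT against 7.43 to 14.03 in 9M_UT, and 4 of 4 were higher at an unadjusted p under 0.05, while 0 of 4 passed (edgeR). Their part in the result was not tested. If the treatment labels were right and the titles wrong, all these signs at 9 months would turn.

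The difference between both comparisons, detraining minus training, was tested in the same fit. No member passed, beside 0.0268% of all genes (edgeR; DESeq2 and limma-voom called 0), and 2 had an unadjusted p under 0.05, beside 9.48% of all genes. The difference was 0.38 ± 0.13 for Ndufb3 and -0.28 ± 0.11 for Ndufc1 (edgeR adjusted p = 0.374 and 0.422). Ndufc1 was higher in trained than untrained libraries at 6 months, and at 9 months its means were 57.4 ± 2.37 CPM (9M_PoW+DT) and 57.6 ± 1.71 CPM (9M_UT; SD, n = 3). Ndufa2 followed at 0.29 ± 0.14, and among the Ndufaf genes Ndufaf7 at -0.33 ± 0.23 and Ndufaf5 at 0.27 ± 0.21, with edgeR adjusted p of 0.542 to 0.734.

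Most subunit genes had a slightly lower mean level in untrained muscle of 9 months than of 6 months (9M_UT minus 6M_UT), but no single gene passed the test. The median log2 fold change of the 39 subunits was -0.16, with 37 of 39 below 0, all but Ndufa4 and Ndufa4l2. The 8 Ndufaf genes had a median of -0.07 with 6 of 8 below 0, and all genes a median of -0.01. Of the 47 members, 0 passed, beside 0.0134% of all genes (edgeR adjusted p under 0.05; DESeq2 called 1 member and limma-voom 0). At an unadjusted p under 0.05, 14 of 39 subunits were lower, beside 3.51% of all genes, and 0 of 8 Ndufaf genes. For 21 of 39 subunits and 0 of 8 Ndufaf genes all 3 libraries of 9M_UT lay below all 3 of 6M_UT, beside 6.43% of all genes. The median standard error was 0.16 over the Ndufaf genes and 0.09 over the subunits. A shift of the same size was thus less readily detected in an Ndufaf gene.

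The smallest p in this comparison belonged to Ndufa3, at 45.4 ± 1.299 CPM against 64.5 ± 8.47 CPM (SD, n = 3). Its log2 fold change was -0.51 ± 0.10 (SE; edgeR adjusted p = 0.148). Ndufa7 followed at -0.40 ± 0.09 and Ndufa2 at -0.34 ± 0.10 (edgeR adjusted p = 0.245 and 0.489). Among the core subunits Ndufs3 stood at -0.20 ± 0.07 and Ndufs7 at -0.18 ± 0.08, and all 7 were below 0 with a median of -0.12. The medians by module were -0.16 in the N module, -0.17 in the Q module, -0.12 in the proximal and -0.17 in the distal membrane arm. The Ndufaf genes with the smallest p were Ndufaf6 at 0.26 ± 0.19 and Ndufaf8 at -0.14 ± 0.16 (edgeR adjusted p = 0.8702 and 0.938).

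**Figure D4:**
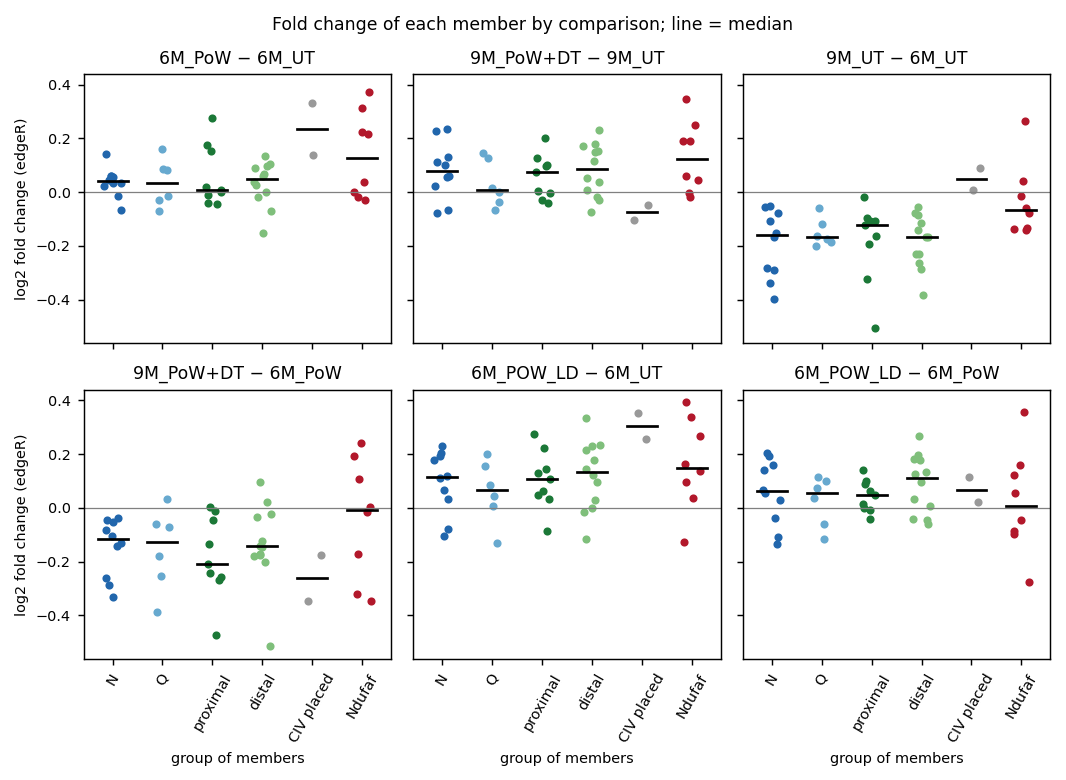
Log2 fold change (edgeR) of each member in 6 comparisons between groups, by module and for the Ndufaf genes; the line is the median of the points. In 9M_UT minus 6M_UT and in 9M_PoW+DT minus 6M_PoW the medians of the N, Q, proximal and distal groups lie between -0.12 and -0.21, and the Ndufaf medians at -0.07 and -0.01.

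Detrained muscle of 9 months was compared with trained muscle of 6 months (9M_PoW+DT minus 6M_PoW), groups that share no library with the comparison of untrained mice. In this comparison detraining, age and library series cannot be told apart. Ndufc1 stood at 57.4 ± 2.37 CPM in 9M_PoW+DT against 79.7 ± 3.34 CPM in 6M_PoW (SD, n = 3), a log2 fold change of -0.47 ± 0.08 (SE; edgeR adjusted p = 0.0174). It was the only 1 of 47 members that passed, beside 0.295% of all genes. The call was lost without 6M_PoW replicate 1 or 2 (edgeR adjusted p = 0.0826 and 0.0799) and without 9M_PoW+DT replicate 2 or 3 (0.0546 and 0.0869), while the fold change stayed between -0.51 and -0.45. Ndufb1-ps at -0.52 ± 0.12 and Ndufs8 at -0.39 ± 0.09 followed (edgeR adjusted p = 0.0778 and 0.0877). At an unadjusted p under 0.05, 15 members were lower, 14 of them subunits, beside 6.04% of all genes. The median was -0.14 over the subunits with 35 of 39 below 0, and -0.01 over the Ndufaf genes with 4 of 8 below 0, beside -0.01 over all genes. Leaving out 1 library moved the Ndufaf median between -0.1041 (without 9M_PoW+DT replicate 2) and 0.0983 (without its replicate 3), and the subunit median between -0.2084 and -0.1005. For 18 subunits and 0 Ndufaf genes the groups did not overlap, 9M_PoW+DT being lower, beside 9.62% of all genes. Here too the median standard error was larger over the Ndufaf genes (0.16) than over the subunits (0.09). The Ndufaf gene at an unadjusted p under 0.05 was Ndufaf7 at -0.35 ± 0.16, and Ndufaf3 followed at -0.32 ± 0.21 (edgeR adjusted p = 0.3804 and 0.586). The adipocyte markers were 15.4 to 61.6 CPM in 9M_PoW+DT against 5.49 to 9.09 in 6M_PoW, 4 of 4 being higher at an unadjusted p under 0.05 and 1, Lep, passing (edgeR adjusted p = 0.0317). Their part in the result was not tested.

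In both comparisons between 9 and 6 months, 33 of 39 subunits were below 0, as were 4 of 8 Ndufaf genes and 26.1% of all genes. All 10 N module genes were among them, 5 of 6 of the Q module, 8 of 9 of the proximal and 10 of 12 of the distal membrane arm. Pooling both 9-month groups against both 6-month groups, an alternative added after the data were seen, all 39 subunits were below 0, with a median of -0.13, and 4 of 8 Ndufaf genes, with a median of -0.01. In it 4 members passed, all lower, beside 0.154% of all genes that passed as lower (edgeR adjusted p under 0.05). They were Ndufc1 at -0.33 ± 0.05, Ndufa7 at -0.36 ± 0.07, Ndufa3 at -0.38 ± 0.07 and Ndufb1-ps at -0.45 ± 0.08 (log2 ± SE; edgeR adjusted p from 0.0182 to 0.0362). The number that passed fell to 0 without 6M_PoW replicate 1 or 2 or 6M_UT replicate 2 or 3, to 1 without any 9M_UT replicate or 9M_PoW+DT replicate 2, and to 2 without 9M_PoW+DT replicate 3.

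The 6M_POW_LD libraries were compared with untrained muscle of the same age (6M_POW_LD minus 6M_UT). Ndufb7 stood at 123 ± 8.43 CPM against 97.5 ± 2.66 CPM and Ndufa4 at 334 ± 21.4 CPM against 280.03 ± 15.2 CPM (SD, n = 3). Their log2 fold changes were 0.33 ± 0.09 and 0.25 ± 0.07 (SE; edgeR adjusted p = 0.0317 and 0.0397). These 2 of 47 members (4.26%) passed, beside 4.99% of all 15181 genes, so that the share was near that of all genes. DESeq2 called 7 members and limma-voom 3. The call of Ndufb7 was lost without 6M_UT replicate 1 or 3 (edgeR adjusted p = 0.0938 and 0.0855) and without 6M_POW_LD replicate 4, 5 or 6 (0.0518, 0.154 and 0.0627). That of Ndufa4 was lost without 6M_UT replicates 2 and 3, 6M_PoW replicate 2, 6M_POW_LD replicates 4 and 5, 9M_UT replicates 2 and 3 or 9M_PoW+DT replicate 2, each left out alone, and with no filter on low counts, with edgeR adjusted p up to 0.1503.

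Below the threshold, Ndufv1 stood at 0.20 ± 0.06, Ndufaf4 at 0.39 ± 0.11 and Ndufaf6 at 0.34 ± 0.18 (edgeR adjusted p = 0.0615, 0.0542 and 0.307). At an unadjusted p under 0.05, 13 members were higher, 12 of them subunits, beside 9.72% of all genes. The median was 0.12 over the subunits with 32 of 39 above 0, and 0.15 over the Ndufaf genes with 7 of 8 above 0, beside 0.01 over all genes. Against the trained libraries (6M_POW_LD minus 6M_PoW) 0 of 47 members passed, beside 2.4% of all genes (edgeR, DESeq2 and limma-voom alike), and 6 were higher at an unadjusted p under 0.05, beside 7.09% of all genes. Ndufb7 stood at 0.27 ± 0.09, Ndufb9 at 0.18 ± 0.06 and Ndufb10 at 0.20 ± 0.07, and Ndufaf4 at 0.36 ± 0.11 and Ndufaf1 at 0.16 ± 0.10 (edgeR adjusted p from 0.115 to 0.551). The medians were 0.06 over the subunits and 0.01 over the Ndufaf genes. Both LD comparisons share the LD libraries. In 6M_POW_LD the summed markers of fibro-adipogenic cells (Pdgfra, Dcn, Lum and Col1a1) were 335 to 423 CPM against 255 to 278 in 6M_UT, and 3 of 4 passed as higher (Pdgfra, Dcn and Lum; edgeR adjusted p up to 0.0447). Macrophage markers (Adgre1, Cd68, Lyz2, Mrc1 and Csf1r) were 49.2 to 60.3 CPM against 32.9 to 34.4. All 5 were higher at an unadjusted p under 0.05 (edgeR), beside 9.72% of all genes, and 1 of them, Lyz2, passed (edgeR adjusted p = 0.00344). Endothelial markers (Pecam1, Cdh5, Kdr and Tek) were 188 to 241 against 158 to 201 CPM, with 4 of 4 above 0 and 0 of 4 passing. The part of these cells in the result was not tested.

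Subunits and Ndufaf genes were then set against each other within each library, as the mean log2(CPM + 0.5) of the 39 subunits minus that of the 8 Ndufaf genes. This balance was 2.93, 2.86 and 2.90 in 6M_UT and 2.79, 2.697 and 2.95 in 6M_PoW. It was 2.85, 2.82 and 2.85 in 6M_POW_LD. At 9 months it was 2.77, 2.69 and 2.83 in 9M_UT and 2.65, 2.69 and 2.76 in 9M_PoW+DT. All 6 libraries of 9 months thus lay below the 3 libraries of 6M_UT, but so did the 3 libraries of 6M_POW_LD. Those of 6M_PoW reached from below to above 6M_UT. The group means were 2.90 ± 0.03 in 6M_UT, 2.81 ± 0.13 in 6M_PoW, 2.84 ± 0.02 in 6M_POW_LD, 2.76 ± 0.07 in 9M_UT and 2.699 ± 0.06 in 9M_PoW+DT (SD, n = 3). Untrained muscle of 9 months was 0.14 lower than at 6 months, and detrained was 0.12 lower than trained, against a standard deviation within groups of 0.07. The balance differed from that of the untrained group of the same age by -0.08 in 6M_PoW, -0.06 in 9M_PoW+DT and -0.06 in 6M_POW_LD. These differences were near the standard deviation within groups. With the 9 assembly factors of other names added to the Ndufaf genes, these values were -0.004 for training, -0.05 for detraining and 0.004 for LD, while the age value was -0.12. Leaving out 1 library gave -0.15 to -0.03 for training (without 6M_PoW replicate 3 or 2), -0.101 to -0.03 for detraining (without 9M_UT replicate 2 or 3) and -0.17 to -0.05 for detrained against trained (without 6M_PoW replicate 2 or 3). For age it gave -0.17 to -0.0985. No test was made of the balance, as the members were chosen with results of these data known. In the summed levels, the subunits held 37.8 times the CPM of the Ndufaf genes in 9M_PoW+DT, 38.5 in 9M_UT and in 6M_POW_LD, 40.0 in 6M_PoW and 41.4 in 6M_UT. On this scale the 9-month libraries overlapped 6M_UT: 9M_UT replicate 3 (41.4) and 9M_PoW+DT replicate 3 (41.1) lay above 6M_UT replicate 2 (40.9), and the SD was 2.55 and 2.85 in the 9-month groups (n = 3).

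**Figure D5:**
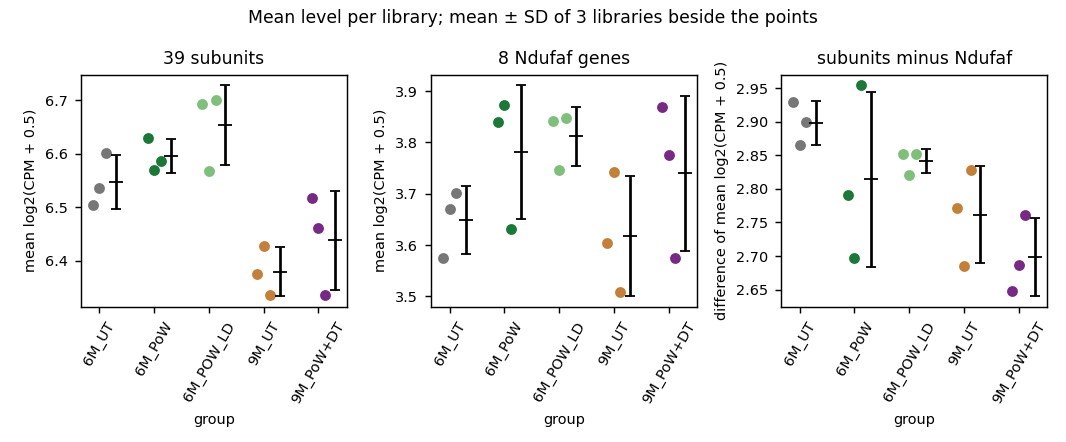
Mean log2(CPM + 0.5) per library of the 39 subunits (left) and the 8 Ndufaf genes (middle), and the left minus the middle (right), with the mean ± SD of 3 libraries beside the points. The subunit means are 6.34 to 6.43 in 9M_UT and 6.50 to 6.60 in 6M_UT, while the Ndufaf means of these groups overlap; the vertical axes do not start at 0.

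Of the 9 assembly factors with other names (Ecsit, Acad9, Tmem126b, Timmdc1, Nubpl, Foxred1, Tmem186, Dmac1 and Dmac2), 0 passed in either comparison between 9 and 6 months. Their medians were -0.07 in untrained muscle, with 7 of 9 below 0, and 0.07 in detrained against trained muscle, with 3 of 9 below 0. Dmac2, a factor of the distal membrane arm, differed over the 5 groups (edgeR adjusted p = 0.0359), the only one of these 9. The 7 complex I genes of the mitochondrial genome encode its core membrane subunits. In untrained muscle of 9 against 6 months 5 of 7 were above 0, with a median of 0.09, and the lowest stood at -0.66. At an unadjusted p under 0.05 (edgeR), 1 was higher and 1 lower. In detrained against untrained muscle at 9 months all 7 were below 0, with a median of -0.18, and 0 passed, while 27 of 39 nuclear subunits were above 0. In detrained against trained muscle all 7 were below 0 too, with a median of -0.11 and the lowest at -0.75. Of these 7, 4 were without overlap, beside 9.62% of all genes, and 0 passed. Over the 5 groups 1 of 7 passed, mt-Nd3 (edgeR adjusted p = 0.0282). With both 9-month groups pooled against both 6-month groups, 5 of 7 were below 0, with a median of -0.004. In that comparison 1 of 7 passed, as lower (edgeR adjusted p = 0.0488). Reads of mitochondrial genes may be shared with nuclear copies.

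Genes of the other respiratory complexes were mostly below 0 in the same comparisons. In untrained muscle, all 4 genes of complex II, 9 of complex III, 11 of complex IV and 13 of complex V were below 0 as well, with medians of -0.14, -0.18, -0.26 and -0.14. In detrained against trained muscle, 1 of 4 genes of complex II was below 0, and 9 of 9, 10 of 11 and 12 of 13 of complexes III, IV and V were. Their medians were 0.01, -0.19, -0.30 and -0.14, and 2 genes of complex IV passed. These were Cox7a1, a muscle isoform subunit, at -0.84 ± 0.11, and Cox7c at -0.58 ± 0.10 (SE; edgeR adjusted p = 0.0104 and 0.0317). Over the 5 groups 7 of the 11 genes of complex IV, 4 of 9 of complex III, 4 of 13 of complex V and 0 of 4 of complex II differed (edgeR).

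The transcripts of complex I are short, with a median of 873 nucleotides over the 38 subunits, and short transcripts as a whole were lower in 9M_UT. The median log2 fold change in that comparison was -0.13 over 259 genes under 700 nucleotides, -0.08 over 499 of 700 to under 1000 and -0.03 over 2728 of 1000 to under 2000. The subunits in these classes stood at -0.11 over 13, -0.17 over 11 and -0.13 over 10 genes. Spearman's rho between transcript length and this fold change was 0.29 across the 38 subunits and 0.13 across 12675 genes, as a description across genes, which share their libraries and are not independent. In detrained against trained muscle the medians of all genes in the same classes were -0.07, 0.00 and 0.00, and those of the subunits -0.18, -0.12 and -0.09. The difference between the 19 longer and the 19 shorter subunits was 0.25 to 0.28 in 9M_UT and 0.18 to 0.22 in 6M_UT (mean log2 CPM). Markers of slow and oxidative fibres (Myh7, Myh2, Tnnt1, Tnni1, Tnnc1, Atp2a2 and Myl3) summed to 2960 to 4293 CPM in 6M_UT and 2994 to 4394 in 9M_UT, and to 3401 to 4919 in 6M_PoW and 2294 to 3890 in 9M_PoW+DT. Of the 7, 6 were above 0 in untrained muscle and 5 in detrained against trained muscle, with a median standard error over 1. Myh2 was at 2222 CPM or more in every library, while the lowest library had 0.055 CPM of Tnnc1 and 0.43 of Tnni1. The summed fibro-adipogenic markers were 324 to 332 CPM in 9M_UT against 255 to 278 in 6M_UT. In trained muscle (6M_PoW) they were 327 to 380.3 CPM, and after detraining 257 to 308. The endothelial markers were 177 to 204 CPM in 9M_UT against 158 to 201 in 6M_UT. In trained muscle they were 221 to 244 CPM, and after detraining 148 to 199.7. The macrophage markers were 41.5 to 47.8 CPM in 9M_UT, above the 32.9 to 34.4 of 6M_UT, with 5 of 5 genes above 0 and 0 of 5 passing (edgeR). After detraining they were 41.2 to 48.4 CPM, and in trained muscle 45.2 to 64.03. The part of transcript length and of these cells in the results was not tested.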

How the data were processed

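Whole-plantaris RNA-seq of 15 libraries was used. The values are expected counts per gene, not all whole, as the authors deposited them in one table, and they were rounded to whole numbers here. STAR 2.7.3a, DESeq2, Partek and the build mm10 are named in the submitters' processing notes, while the sources used here do not give their roles, the counting tool, its use of strand or the annotation. Genes were kept with edgeR's filterByExpr and scaled by TMM. Comparisons without LD libraries were fitted on 12 libraries (14919 genes) and the others on all 15 (15181 genes), with edgeR 4.0.16 (quasi-likelihood, Benjamini-Hochberg adjustment over all genes, R 4.3.3). CPM comes from the 15-library scaling, and means of log2 values use a pseudocount of 0.5 CPM. The replicate numbers did not pair the libraries, and no block was used. Alternatives were DESeq2 1.42.0, limma-voom (limma 3.58.1), other size factors and filters, a replicate block, other readings of the labels, and each library left out. The tests were tested on simulated data. The members and gene lists were chosen with earlier results of these data known. Members named with every library were those called, the 3 subunits and 2 Ndufaf genes with the smallest p in each comparison, the core subunits, Ndufa4 and Ndufa4l2; 1 member is counted in the lists, but its own values are not reported here. Transcript lengths (46 of 47 members) are from GENCODE M21 and promoters (41 of 47) from RefSeq, GRCm38.p6.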

Additional observations from a re-analysis of the deposited data

Results flagged for a closer look

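The processed pseudogenes of complex I, which the rule left out, were listed with counts, and each of the following 5 had more than 3 counts in all 15 libraries. The median level was 80.49 CPM for Ndufb4c, which took 67.2% to 78.1% of the counts of the pair with Ndufb4. It was 56.49 CPM for Ndufa12-ps, which took 52.0% to 66.5% of the pair with Ndufa12. It was 13.54 CPM for Ndufab1-ps, with 12.5% to 18.2% of the pair with Ndufab1. Ndufs5-ps had 1.596 CPM and Ndufs6b 1.486 CPM, with at most 2.58% and 5.94% of their pairs. How reads were shared between these copies and their parent genes was not tested.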

How the results depend on the processing

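With the 9-month groups exchanged, as the treatment label has them, the subunit median was -0.058 for detraining (0.058 by title), -0.0957 for the difference (0.036) and -0.0788 for age (-0.164). The Ndufaf median was then -0.1252 for detraining (0.125), -0.2858 for the difference (-0.037) and 0.0511 for age (-0.067). With the LD libraries added to the untrained group, the Ndufaf median of the difference was 0.0794 and 0 members passed in detrained against trained muscle, where 1 had. With them added to the trained group, 2 passed there and the subunit median was -0.2078 (-0.143). DESeq2 called 1 member for age, 3 for detrained against trained and 7 for LD against untrained, where edgeR called 0, 1 and 2. For LD against untrained, 1 passed with no filter and 6 with at least 1 CPM in every library. Pooling the ages gave 4 members in place of 0 for age, and leaving out the LD group gave 1 in place of 10 over the groups. The balance of subunits and Ndufaf genes differed by -0.0036 between 6M_PoW and 6M_UT once other assembly factors were added (-0.084). Between LD and trained libraries it differed by -0.053 on summed CPM (0.028), where leaving out 6M_PoW replicate 2 gave -0.031. The cause of these shifts was not tested. Leaving out 1 library at a time gave 0 to 2 members for detrained against trained, 0 to 4 for LD against untrained, 0 to 1 for LD against trained and 3 to 11 over the 5 groups. It gave subunit medians of -0.0294 to 0.0624 for the difference and -0.2084 to -0.1005 for detrained against trained. Ndufaf medians were -0.1169 to 0.0968 for the difference and -0.0477 to 0.1254 for LD against trained. Over the 5 groups Ndufc1 passed in all 23 alternatives, and Ndufa7 and Ndufb1-ps in 22. Ndufb9 passed in 20 and Ndufb7 in 19. The other calls were less stable: Ndufa11 passed in 13, Ndufb6 in 12, Ndufa9 in 11, Ndufv1 in 10 and Ndufa5 in 7. Of 18 same-numbered pairs, 4 correlated above 0.1 (-0.283 to 0.212), and 4 libraries correlated best with their own number. With the replicate block, 1 member passed in detrained against trained muscle (Ndufc1, edgeR adjusted p = 0.0421) and 0 in the other comparisons without LD.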
